A study of Homo sapiens with 12 samples.

Results

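The nuclear-encoded genes of the respiratory chain and ATP synthase were examined for their response to TNF-α in HL-60/S4, an established line of acute promyelocytic leukemia cells. A gene was included by its name alone: a protein-coding gene outside the mitochondrial chromosome whose symbol begins with NDUFA, NDUFB, NDUFC, NDUFS, NDUFV, SDHA, SDHB, SDHC, SDHD, UQCR, COX4I, COX5, COX6, COX7, COX8 or ATP5, leaving out the NDUFAF assembly factors. This rule took 94 of the 58288 genes counted. It also took the 4 assembly factors *SDHAF1* to *SDHAF4*, which build complex II but are not part of it, and the readthrough genes *ATP5MF-PTCD1* and *NDUFC2-KCTD14*. Total RNA depleted of ribosomal RNA was sequenced from 12 cultures, 3 in each of 4 groups. Undifferentiated promyelocytes received water (vehicle) or 16 ng/mL TNF-α for 2 h. Granulocytes had first been exposed to 1 µM all-trans retinoic acid (ATRA) for 4 days and received the same vehicle or TNF-α. Per the study's methods, granulocytes were then in fresh medium that again held 1 µM ATRA, at a lower cell density than promyelocytes. All groups came from a single seed lot at passage 8, each library was its own flask, and calcium was added to the medium of every group. The 2 cell types were run as separate experiments, so levels were not tested between them and only their responses were compared. The total count per library ran from 22829189 to 31895061 read pairs.

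The respiratory chain passes electrons from NADH and succinate to oxygen and pumps protons across the inner mitochondrial membrane. Complex I (NADH dehydrogenase) and complex II (succinate dehydrogenase) feed electrons in, complex III (cytochrome bc1) and complex IV (cytochrome c oxidase) pass them on, and complex V (ATP synthase) uses the proton gradient to make ATP. Most subunits are encoded in the nucleus and imported, while a small catalytic set is encoded in mitochondrial DNA, and the whole of complex II is nuclear. Neutrophil granulocytes are known for few mitochondria and a heavy use of glycolysis.

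Summed markers went with the labels of the cell types. The 5 promyelocyte markers summed to 7355 to 7968 CPM (counts scaled to library size) in vehicle-treated promyelocytes. In vehicle-treated granulocytes they still summed to 2134 to 2359 CPM. The 8 granulocyte markers summed to 153 to 161 CPM and 3984 to 4178 CPM in the same groups. *MPO*, the peroxidase of azurophil granules, stood at 6378 CPM in vehicle-treated promyelocytes, while *ELANE*, a protease of the same granules, stood at only 1.78 CPM. *CD38* stood at 8.45 CPM in vehicle-treated promyelocytes and 1170 CPM in vehicle-treated granulocytes. Among the markers of other lineages, *MS4A1*, *HBB*, *ALAS2*, *PF4* and *GP9* had no count in any group, but others had low counts. The 3 B cell markers summed to 9.28 to 11.3 CPM in vehicle-treated granulocytes and 5.08 to 5.75 CPM in vehicle-treated promyelocytes. For the 3 T cell markers these sums were 3.43 to 4.08 and 1.49 to 2.08 CPM. Megakaryocyte markers summed to at most 2.05 CPM and erythroid markers to at most 0.256 CPM in any library. The 5 monocyte or macrophage markers summed to 2.92 to 4.75 CPM in promyelocytes. In granulocytes that sum was 49.5 to 51.3 CPM with vehicle and 30.01 to 33.7 CPM with TNF-α, nearly all of it *CSF1R*, and its part in the results below was not tested. *NFKBIA*, the inhibitor of NF-κB and a known target of TNF-α, rose in both experiments, with a log2 fold change of 3.91 in promyelocytes and 5.51 in granulocytes.

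Of the 94 genes, 86 were expressed highly enough to be tested in promyelocytes and 85 in granulocytes. Per length of exon, the 86 genes tested in either cell type spanned 0.293 to 421 RPKM (read pairs scaled to exon length and library size) in vehicle-treated promyelocytes, with a median of 32.2, and 0.116 to 285 RPKM in vehicle-treated granulocytes, with a median of 22.8. *ATP5F1B*, the catalytic beta subunit of ATP synthase, had the highest level per length in promyelocytes (421 RPKM). *COX8A*, a small subunit of complex IV, had the highest in granulocytes (285 RPKM), followed by *ATP5F1B* (245 RPKM) and *COX6B1* (165 RPKM).

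Summed over the 94 genes, the level was 9677 ± 564 CPM (SD, n = 3) in promyelocytes with vehicle and 9475 ± 651 CPM with TNF-α. In granulocytes the sum was 6813 ± 262 CPM with vehicle and 7111 ± 136 CPM with TNF-α. The vehicle libraries of granulocytes summed to 7094, 6574 and 6772 CPM and the TNF-α libraries to 7017, 7267 and 7048 CPM, so the groups overlapped. These CPM use library sizes scaled by TMM (trimmed mean of M-values), which sets the middle of the expressed genes level between libraries. With plain library totals the order of the granulocyte sums turned over, to 7122 CPM with vehicle and 6790 CPM with TNF-α. Plain totals moved the median log2 fold change of all 16944 genes tested in granulocytes from -0.0047 to -0.13, so each direction given for granulocytes is relative to the bulk of expressed genes. Fewer cells of a kind and less RNA per cell cannot be told apart in such bulk samples.

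The genes are short. Their canonical transcripts had a median of 760.5 bases and a coding length of 385.5 bases (medians over 94 genes), against 3272.5 and 1389 bases over the 11676 protein-coding genes tested in granulocytes. Short transcripts as a class differed between libraries. In the vehicle-treated promyelocyte library 1 the 51 tested genes of the group with transcripts of at most 1000 bases stood a median of 0.18 above their mean over the 6 promyelocyte libraries on the log2 scale, and in the TNF-α library 1 they stood 0.19 below it. The 669 other protein-coding genes of that length moved the same way, by 0.10 and -0.12. These 2 libraries stood furthest from the mean, and TNF-α library 2 came next, with the short genes of the group at 0.11. Counts in promyelocytes and for the difference between cell types are also given without both promyelocyte libraries numbered 1. The same was done for the values of the main genes, a choice made after the data had been seen. In granulocytes the short genes of the group stood at 0.02, -0.14 and -0.10 in the vehicle libraries and at 0.07, 0.10 and 0.05 in the TNF-α libraries, and the 2 sets did not overlap. The 679 other protein-coding genes of that length did not overlap either. They stood at 0.006, -0.095 and -0.040 with vehicle and at 0.048, 0.071 and 0.011 with TNF-α.

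**Figure D1:**
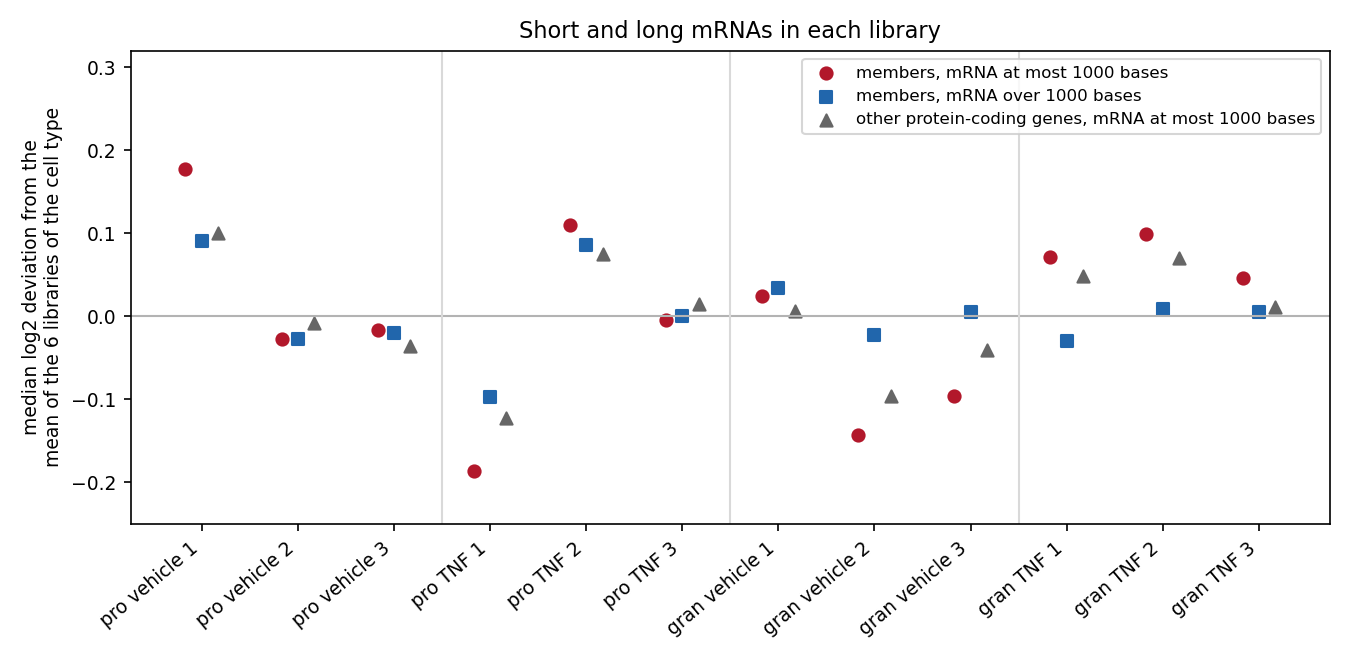
Median log2 deviation (y axis) of 3 classes of genes in each of the 12 libraries (x axis; pro, promyelocytes; gran, granulocytes), measured from each gene's mean over the 6 libraries of its cell type, with circles for short and squares for long members of the group and triangles for other short protein-coding genes. Short members were highest in promyelocyte vehicle library 1 (0.18) and lowest in promyelocyte TNF-α library 1 (-0.19), and the other short genes followed at 0.10 and -0.12.

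In granulocytes, TNF-α raised 28 and lowered 7 of the 85 respiratory chain genes tested (edgeR quasi-likelihood test, adjusted p under 0.05). The remaining 50 did not pass. The increases made up 32.9% of the genes, against 24.4% of all genes tested, and the decreases 8.24%, against 24.8%. In either direction the share was 41.2%, against 49.2% of all genes. The median log2 fold change was 0.08, and 62 of 85 estimates were positive, with a median of -0.0047 over all genes. With plain library totals the same test gave 12 increases and 23 decreases among these genes, with a median of -0.05. Over all 16944 genes tested, plain totals gave 2810 increases and 6236 decreases, with a median of -0.13. The plain-total counts for granulocytes below stand against this split of all genes. Of the 28 increases, 12 passed under both scalings, as did all 7 decreases. The increases that passed were small, and the largest was 1.58-fold (*ATP5ME*). The TNF-α libraries lay wholly above the vehicle libraries for 25 of the 85 genes (29.4%), against 27.3% of all genes, and wholly below for 12 (14.1%), against 27.9%.

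The direction went with the length of the gene. The 28 increased genes had a median coding length of 321 bases (153 to 747), the 7 decreased genes 567 bases (324 to 2181) and the 50 others 475.5 bases. Of the 50 tested members with transcripts of at most 1000 bases, 22 rose and 1 fell, and of the 35 longer members 6 rose and 6 fell. Among the other protein-coding genes of at most 1000 bases, 228 of 679 rose (33.6%) and 77 fell (11.3%), with a median log2 fold change of 0.09. After offsets had taken out trends of each library with summed exon length and GC content, 35 members rose and 10 fell. Of these, 31 were among the 35 called without this correction, and 50.5% of all genes passed in that fit. Summed exon length covers every exon of a gene and is not the transcript length used above (*NDUFB1*, 2263 against 317 bases). Trends with transcript length were therefore not taken out as such. The part of transcript length in the increases was not tested beyond these values.

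**Figure D2:**
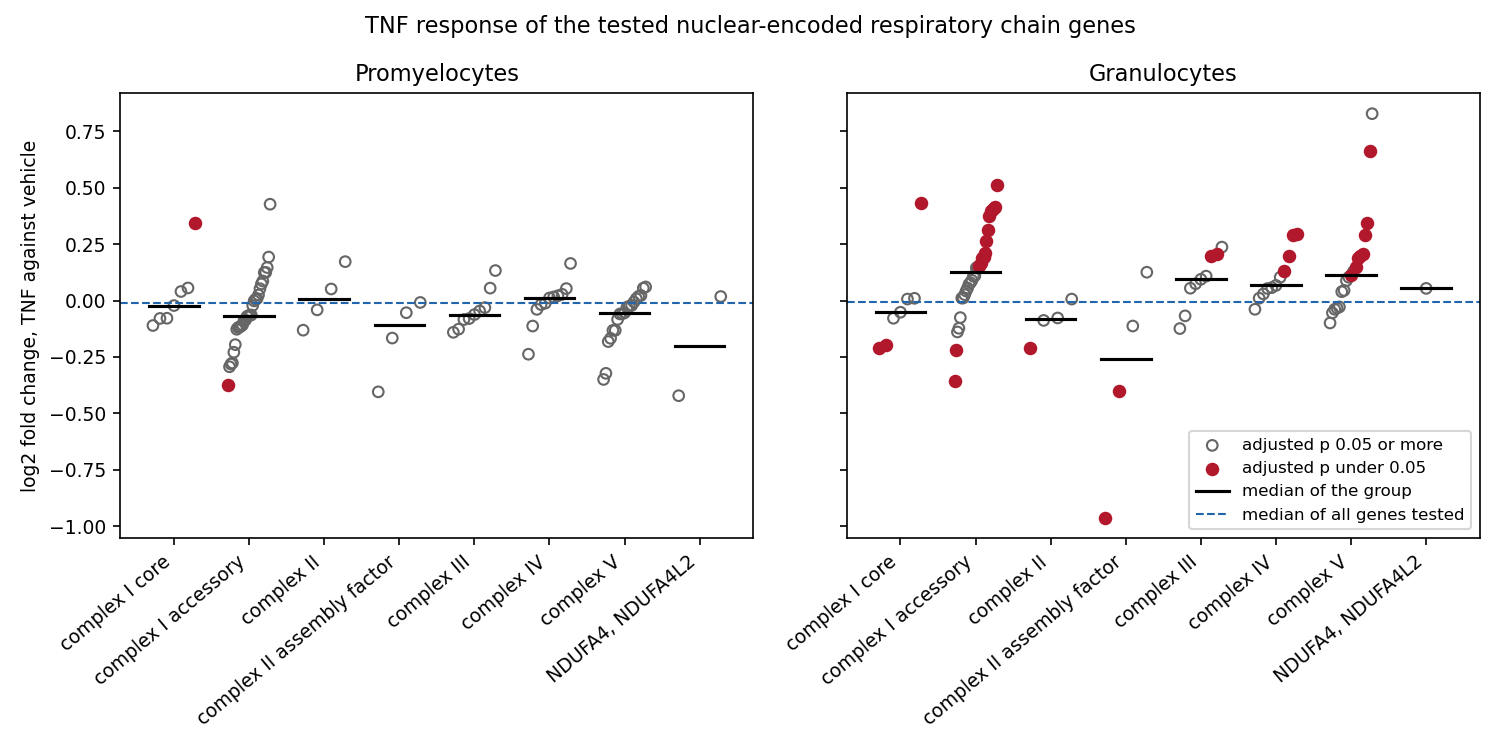
Log2 fold change with TNF-α (y axis) of each tested gene, grouped by complex (x axis), in promyelocytes (left) and granulocytes (right), with filled red points for adjusted p under 0.05, bars for group medians and a dashed line for the median of all genes tested. In granulocytes 28 genes rose and 7 fell (12 and 23 with plain library totals, against 2810 and 6236 of all 16944 genes). Most increases were among complex I accessory subunits (13, or 43.3%) and complex V (8, or 42.1%), against 24.4% of all genes. In promyelocytes only 2 genes passed the test.

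RefSeq promoter windows on GRCh38.p14, from 250 bases before to 50 bases after the start, were matched by symbol for 75 of the 94 genes. Both strands were searched for 4 short motifs of factors known to control respiratory genes. The core of the NRF1 site (GCGCA, any base, then GCGC) stood in 25.3% of the 75 promoters, against 8.62% of 15289 promoters of protein-coding genes. The ETS or GABP motif CCGGAAGT stood in 14.7%, against 6.31%, and the YY1 motif AAGATGGCG in 10.7%, against 2.81%. The CCAAT motif stood in 33.3%, against 36.6%. The NRF1 core was present in 5 of the 24 matched genes that rose in granulocytes, 3 of the 5 that fell and 10 of the 41 that did not pass. These are matches of letters, not sites of binding. The 250 bases before the start are shown for 4 genes described below, chosen after their values had been seen: *NDUFS6* and *ATP5ME*, with the largest differences in response between the cell types among those that passed, *SDHD*, which fell in granulocytes, and *NDUFB4*, with 3 matches to the NRF1 core. Matches to the NRF1, ETS and YY1 motifs on either strand are in capitals.
NDUFS6 (chr5:1801157-1801406, plus strand): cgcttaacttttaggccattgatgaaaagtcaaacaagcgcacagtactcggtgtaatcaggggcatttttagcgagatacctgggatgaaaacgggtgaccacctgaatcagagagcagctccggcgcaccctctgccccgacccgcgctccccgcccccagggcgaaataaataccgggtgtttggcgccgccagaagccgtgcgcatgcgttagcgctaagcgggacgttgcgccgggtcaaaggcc
ATP5ME (chr4:674277-674526, minus strand): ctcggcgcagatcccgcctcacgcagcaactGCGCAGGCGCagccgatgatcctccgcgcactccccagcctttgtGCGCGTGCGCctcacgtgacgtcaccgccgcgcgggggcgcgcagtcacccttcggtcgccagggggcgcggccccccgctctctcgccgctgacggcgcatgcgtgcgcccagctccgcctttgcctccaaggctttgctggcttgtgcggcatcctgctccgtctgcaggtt
NDUFB4 (chr3:120596086-120596335, plus strand): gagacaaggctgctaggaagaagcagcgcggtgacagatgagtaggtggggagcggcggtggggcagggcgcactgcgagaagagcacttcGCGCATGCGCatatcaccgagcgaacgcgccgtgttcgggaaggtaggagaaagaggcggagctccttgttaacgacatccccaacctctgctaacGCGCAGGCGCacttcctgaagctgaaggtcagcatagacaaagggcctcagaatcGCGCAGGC
SDHD (chr11:112086623-112086872, plus strand): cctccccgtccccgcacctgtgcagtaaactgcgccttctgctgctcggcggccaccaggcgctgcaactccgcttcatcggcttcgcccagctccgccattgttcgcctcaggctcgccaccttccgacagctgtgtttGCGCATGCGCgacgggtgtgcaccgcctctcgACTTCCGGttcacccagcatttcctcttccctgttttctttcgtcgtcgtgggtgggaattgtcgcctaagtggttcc
In *NDUFB4* the third match runs past the start, so only its first 8 bases appear. *SDHD* holds an NRF1 core and, nearer the start, an ETS motif on the opposite strand. *ATP5ME* holds 2 NRF1 cores, both in the distal part of the window, and *NDUFS6* holds none of the 3 motifs in these bases.

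Complex I is an L-shaped enzyme of 7 nuclear-encoded core subunits, which carry the flavin and the iron-sulfur clusters, and a larger shell of accessory subunits that stabilise it. Of the 30 accessory subunits tested in granulocytes, 13 rose and 2 fell (median log2 fold change 0.13). These shares are 43.3% and 6.67%, against 24.4% and 24.8% of all genes. With plain library totals 6 rose and 6 fell. *NDUFA1*, a small membrane-arm subunit on the X chromosome, stood at 54.0, 45.0 and 45.5 CPM with vehicle and 58.4, 66.5 and 66.8 CPM with TNF-α. Its log2 fold change was 0.41 (standard error 0.06, adjusted p = 1.32e-06). *NDUFB4*, another membrane-arm subunit, gave the tightest groups, at 63.6, 63.5 and 63.0 CPM with vehicle and 81.7, 81.9 and 83.2 CPM with TNF-α. For both genes the TNF-α libraries lay above all vehicle libraries. *NDUFB4* rose by 0.38 on the log2 scale (standard error 0.05, adjusted p = 1.00e-07).

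*NDUFS6*, an accessory subunit that holds a zinc ion and is needed late in assembly, had 26.8, 23.5 and 28.2 CPM with vehicle and 40.3, 32.5 and 32 CPM with TNF-α. The TNF-α libraries were all higher, and library 1 was well above the other two. Its log2 fold change was 0.42 (standard error 0.08, adjusted p = 2.44e-05). *NDUFB1* rose by 0.40 (adjusted p = 4.79e-06), from 32.7 ± 3.93 to 43.1 ± 0.975 CPM. *NDUFA13*, also known as GRIM-19, rose by 0.51 (adjusted p = 0.00313) from a low level of 3.70 to 4.17 CPM in the vehicle libraries, and 21.0% of its exon bases are shared with other genes of the same strand, where read pairs are not counted. *NDUFA1*, *NDUFB4*, *NDUFS6*, *NDUFB1* and *NDUFA13* rose under both scalings. The other 8 accessory subunits that rose had log2 fold changes from 0.15 (*NDUFB2*) to 0.40 (*NDUFA3*).

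The accessory subunits that fell were *NDUFV3*, which sits on the NADH-oxidising arm, and *NDUFB5*. *NDUFV3* had 68.9, 68.0 and 69.0 CPM with vehicle and 52.9, 55.1 and 52.6 CPM with TNF-α. The groups were well apart, with a log2 fold change of -0.36 (standard error 0.05, adjusted p = 5.94e-07). *NDUFB5* fell by 0.22 on the log2 scale (adjusted p = 7.05e-04).

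The core subunits did not share a direction in granulocytes: 1 rose, 2 fell and 4 did not pass. The shares that rose and fell were 14.3% and 28.6%, against 24.4% and 24.8% of all genes. With plain library totals 1 rose and 5 fell. *NDUFV2*, an iron-sulfur subunit of the NADH-oxidising arm, rose from 14.4, 13.9 and 12.6 CPM to 17.8, 18.7 and 18.6 CPM. The groups did not overlap, and the log2 fold change was 0.43 (standard error 0.08, adjusted p = 3.51e-05). Of its exon bases, 28.4% lie under another gene of the same strand and are not counted. *NDUFS1*, the largest core subunit, which carries iron-sulfur clusters, fell from 128, 136 and 130 CPM to 110, 114 and 117 CPM. No TNF-α library reached a vehicle library, and the log2 fold change was -0.21 (standard error 0.05, adjusted p = 5.22e-04). *NDUFV1*, which binds NADH and flavin, had a log2 fold change of 0.01 (adjusted p = 0.928), and with plain library totals it passed the test in the other direction, at -0.12 (adjusted p = 0.0408).

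Complex II links the citrate cycle to the chain. Of its 4 subunits, 3 fell in granulocytes with plain library totals. Under TMM scaling only *SDHD*, a membrane anchor, passed the test, as a decrease (25%, against 24.8% of all genes). It stood at 67.02, 63.9 and 60.7 CPM with vehicle and 50.3, 57.9 and 57.1 CPM with TNF-α, lower in every TNF-α library. Its log2 fold change was -0.21 (standard error 0.06, adjusted p = 0.00293), and 18.2% of its exon bases are shared with another gene of the same strand. The catalytic flavoprotein gene *SDHA* had a log2 fold change of -0.08 (adjusted p = 0.245), the iron-sulfur subunit gene *SDHB* -0.09 (adjusted p = 0.195) and the second anchor gene *SDHC* 0.01 (adjusted p = 0.931).

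The largest change among the tested genes in granulocytes was in an assembly factor. *SDHAF3*, which helps to mature the iron-sulfur subunit of complex II, had 199, 209 and 153 read pairs in the vehicle-treated granulocyte libraries and 59, 97 and 89 with TNF-α. These counts correspond to 7.66, 6.97 and 5.16 CPM and to 2.64, 3.47 and 4.02 CPM. Every TNF-α library was lower, and the log2 fold change was -0.96 (standard error 0.16, adjusted p = 4.57e-06), a level 0.514 times that of vehicle. Leaving out any single library kept it between -1.11 and -0.82 and past the threshold. *SDHAF4*, which acts on the flavoprotein, fell by 0.40 (adjusted p = 0.0171), but 3 of the 6 fits with a library left out did not pass, with adjusted p up to 0.0641. *SDHAF1* and *SDHAF2* had log2 fold changes of -0.11 and 0.13 (adjusted p = 0.542 and 0.243).

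In complex III, 2 of 9 genes rose in granulocytes (22.2%, against 24.4% of all genes) and none fell. These were *UQCRB* (log2 fold change 0.20, adjusted p = 0.00131) and *UQCRQ* (0.20, adjusted p = 0.0147), both small subunits near the ubiquinone-binding part of the complex. With plain library totals neither passed and 2 genes fell. The large core proteins *UQCRC1* (0.11, adjusted p = 0.132) and *UQCRC2* (0.05, adjusted p = 0.357) and the iron-sulfur protein *UQCRFS1* (-0.12, adjusted p = 0.0577) did not pass.

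In complex IV, 4 of 11 genes rose in granulocytes (36.4%, against 24.4% of all genes) and none fell (24.8% of all genes). With plain library totals 2 rose and 1 fell. *COX5A*, a matrix-side subunit, had 93.5, 93.5 and 101 CPM with vehicle and 118, 121 and 115 CPM with TNF-α. The groups were apart and the log2 fold change was 0.29 (standard error 0.05, adjusted p = 7.10e-06). *COX6C* rose by 0.29 (adjusted p = 2.04e-04), although TNF-α library 1, at 78.7 CPM, lay below vehicle library 1, at 79.0 CPM. *COX7B* rose by 0.20 (adjusted p = 0.00224). *COX7C*, another small subunit, had a log2 fold change of 0.01 (adjusted p = 0.888). *COX5B* was at the threshold, with 0.13 (adjusted p = 0.0461), and passed in 2 of the 6 fits that left out a library. *COX4I1*, a reference gene in the study's own RT-qPCR, stood at 127, 116 and 131 CPM with vehicle and 134, 138 and 130 CPM with TNF-α in granulocytes. The groups overlapped, and its log2 fold change was 0.10 in granulocytes (standard error 0.05, adjusted p = 0.0949) and -0.02 in promyelocytes (standard error 0.06, adjusted p = 0.89).

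In complex V, 8 of 19 genes rose in granulocytes (42.1%, against 24.4% of all genes) and none fell (24.8% of all genes). With plain library totals 3 rose and 4 fell. *ATP5ME*, the small e subunit of the membrane part that takes part in dimer formation, rose the most of any member past the threshold. It stood at 23.8, 21.7 and 22.7 CPM with vehicle and 36.8, 36.2 and 34.7 CPM with TNF-α. All TNF-α libraries were higher by a wide margin, with a log2 fold change of 0.66 (standard error 0.07, adjusted p = 9.61e-11). *ATP5F1E*, the epsilon subunit of the central stalk, rose by 0.35 (adjusted p = 2.30e-06) and *ATP5MK* by 0.29 (adjusted p = 1.62e-05). *ATP5F1A*, *ATP5F1B* and *ATP5F1C*, for the alpha, beta and gamma subunits of the catalytic part, did not pass, with log2 fold changes of -0.05, -0.10 and -0.04 (adjusted p = 0.358, 0.0918 and 0.551). *ATP5IF1*, the inhibitor of ATP hydrolysis, had 0.04 (adjusted p = 0.551).

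**Figure D3:**
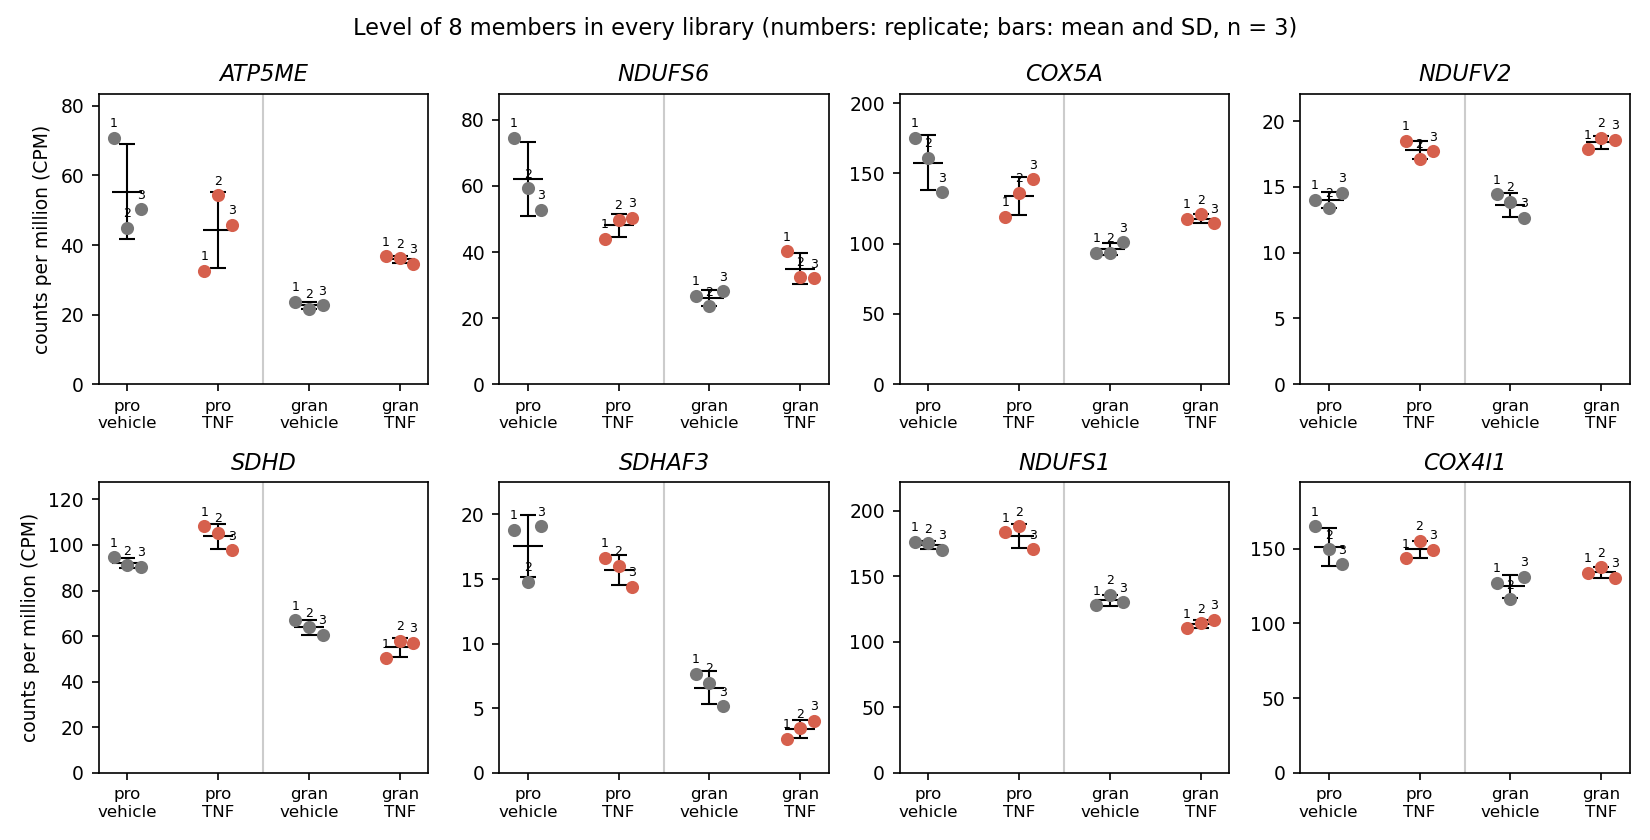
Level in CPM (y axis, from 0) of 8 genes in every library of the 4 groups (x axis; pro, promyelocytes; gran, granulocytes), with grey points for vehicle, red points for TNF-α, replicate numbers above the points and bars for mean and SD of 3 libraries. *ATP5ME* lay between 34.7 and 36.8 CPM in all granulocyte TNF-α libraries and between 21.7 and 23.8 CPM with vehicle, whereas in promyelocytes its libraries ranged from 32.6 to 70.8 CPM.

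In promyelocytes, 2 of the 86 genes tested passed the threshold, 1 up and 1 down (1.16% each), which is 2.33% against 14.8% of all genes (8.15% up and 6.65% down). The median log2 fold change was -0.04 (all genes, -0.01), with 56 of 86 estimates negative, and 15 genes had an unadjusted p under 0.05. Without promyelocyte library 1 of both groups the median was 0.07 and 70 estimates were positive. There were 3 increases (*COX6A1*, *NDUFA11* and *NDUFV2*, named here for this fit) and no decrease, and 12.2% of all genes passed. That fit keeps TNF-α library 2, where short genes of the group stood high. Without TNF-α library 2 alone the median was -0.10, with 68 estimates negative. *NDUFV2* had 14.03, 13.4 and 14.6 CPM with vehicle and 18.5, 17.1 and 17.7 CPM with TNF-α, higher in every TNF-α library. Its log2 fold change was 0.34 (standard error 0.09, adjusted p = 0.00894). The call was lost without vehicle library 2 (log2 fold change 0.31, adjusted p = 0.0582) and kept without both libraries numbered 1 (0.32, adjusted p = 0.0391).

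*NDUFS6* fell in promyelocytes, from 74.5, 59.3 and 52.7 CPM to 43.99, 49.7 and 50.4 CPM. All TNF-α libraries were lower, and vehicle library 1 was the highest. The log2 fold change was -0.37 (standard error 0.09, adjusted p = 0.00946). It was -0.22 (adjusted p = 0.0874) without vehicle library 1 and -0.16 (adjusted p = 0.186) without library 1 of both groups. Over all genes of the group, the TNF-α libraries lay wholly above the vehicle libraries for 6 of 86 (6.98%), against 16% of all genes, and wholly below for 4 (4.65%), against 15.1%.

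The responses of the 2 cell types were compared by the interaction of cell type and treatment in a fit of all 12 libraries. For 20 of 86 genes (23.3%) the response differed, against 24% of all genes, with a median difference of 0.15 (all genes, 0.03). It was higher in granulocytes for 17 (19.8%, against 14.1% of all genes) and lower for 3 (3.49%, against 9.88%). Other scalings gave fewer of the former: 12 higher and 6 lower with the size factors of DESeq2, and 10 higher and 10 lower with plain library totals. Of all genes, 24.2% and 28.1% passed with these scalings. With plain totals 1570 of all 18124 genes were higher and 3530 lower. Without both promyelocyte libraries numbered 1, 12 genes passed, 9 higher and 3 lower, against 20.4% of all genes. All 12 were among the 20. Of the 20 genes, 19 had estimates of opposite sign in the 2 cell types, but only *NDUFS6* passed the test in both. Without both promyelocyte libraries numbered 1, most promyelocyte estimates of the 17 genes turned from negative to positive. Only those of *ATP5F1E*, *ATP5MC2*, *COX5A*, *NDUFA1*, *NDUFB1* and *NDUFS6* stayed negative.

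*NDUFS6* gave the smallest p, with a difference of 0.83 on the log2 scale (standard error 0.15, adjusted p = 1.28e-04). Without both libraries numbered 1 the difference was 0.59 (adjusted p = 4.23e-04). *ATP5ME* had the largest difference of those that passed, 1.02 (standard error 0.19, adjusted p = 2.53e-04), and 0.60 without the same libraries (adjusted p = 8.20e-05). *ATP5ME* did not pass in promyelocytes, with a log2 fold change of -0.32 (adjusted p = 0.158) that became 0.07 without them. For *COX5A* the difference was 0.57 (adjusted p = 2.53e-04), for *NDUFA1* 0.74 (adjusted p = 2.55e-04), for *NDUFB1* 0.72 (adjusted p = 3.38e-04) and for *NDUFB4* 0.48 (adjusted p = 3.85e-04). Without those libraries these became 0.38, 0.48, 0.47 and 0.31, and all 4 passed. The 3 genes with a lower response in granulocytes were *SDHAF3* (-0.76, adjusted p = 0.00639), *SDHD* (-0.35, adjusted p = 0.00398) and *NDUFS1* (-0.23, adjusted p = 0.0247), which were -0.79, -0.36 and -0.25 without those libraries and passed. In promyelocytes *SDHD* stood at 94.8, 91.0 and 90.4 CPM with vehicle and 108, 105 and 97.7 CPM with TNF-α, higher in all TNF-α libraries, but did not pass the test there (log2 fold change 0.17, adjusted p = 0.0598). *NDUFV2* rose in both cell types, and the difference of 0.13 did not pass (adjusted p = 0.476).

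**Figure D4:**
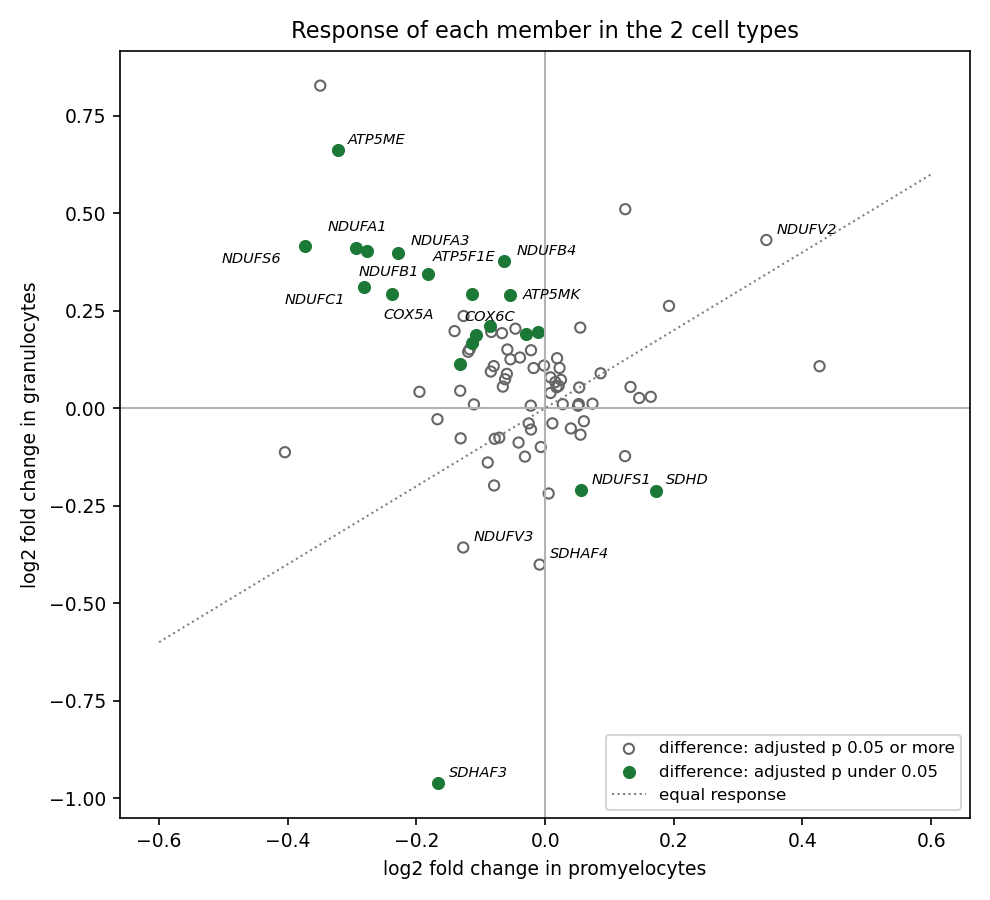
Log2 fold change with TNF-α in promyelocytes (x axis) against that in granulocytes (y axis) for the 85 genes tested in both, with filled green points where the difference had an adjusted p under 0.05 and a dotted line of equal response. Of the 20 filled points, 17 lie above the line (10 higher and 10 lower with plain library totals), mostly at negative values in promyelocytes and positive values in granulocytes, and *SDHAF3*, *SDHD* and *NDUFS1* lie below it.

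Several subunits have forms restricted to certain tissues, and these were absent or near the limit of detection. *COX4I2*, *COX6A2* and *COX7B2* had no read pair in any of the 12 libraries, while *COX6B2* and *COX7A1* had 1 each over all libraries and *COX8C* had 0 to 3 per library. The readthrough genes *ATP5MF-PTCD1* and *NDUFC2-KCTD14* had 2 to 8 and 0 to 2 counts per library. Of their exon bases, 88.3% and 100% are shared with other genes of the same strand, where read pairs are not counted. Their low counts therefore do not show low expression. These 8 genes, the tissue-restricted forms and the readthrough genes, were not tested. At these depths 3 counts stand at 0.0953 to 0.135 CPM, which covers counting error only. The common counterparts of the tissue-restricted forms were high, such as *COX6A1* at 71.9 to 130 CPM and *COX7A2* at 130 to 157 CPM over all libraries. *COX7A2L* and *NDUFA4* did not pass in either cell type, with log2 fold changes of -0.04 and 0.05 in granulocytes and 0.01 and 0.02 in promyelocytes. *NDUFA4L2*, which is known to be induced in hypoxia, had 13 to 35 counts per library in promyelocytes and 1 to 11 in granulocytes, where it was too low to be tested. *UQCRHL*, a near copy of *UQCRH*, stood at 2.002 to 5.21 CPM against 162 to 297 CPM for *UQCRH*, and since reads can align to either copy its level is uncertain. The same holds for *ATP5MGL*, a copy of *ATP5MG*, whose log2 fold change of 0.83 in granulocytes did not pass (adjusted p = 0.0629).

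Other parts of the same pathway were read from the same fits. Of the 13 subunits encoded in mitochondrial DNA, 10 rose in granulocytes (76.9%, against 24.4% of all genes) and none fell (median log2 fold change 0.22), and with plain library totals 5 rose and none fell. Their summed level was 74034, 64342 and 58280 CPM in the TNF-α libraries and 54022, 57401 and 61355 CPM in the vehicle libraries. TNF-α library 1 was the highest, TNF-α library 3 lay below vehicle library 3, and of the 10 genes only *MT-CO3*, *MT-ND3* and *MT-ND6* had groups that did not overlap. In promyelocytes 3 of the 13 fell (23.1%, against 6.65% of all genes, and 4 with plain library totals) and none rose (median -0.10). Those 3 were the short genes *MT-ATP8*, *MT-ND3* and *MT-ND4L*, with log2 fold changes of -0.48, -0.40 and -0.32 there and 0.48, 0.44 and 0.46 in granulocytes. *MT-ATP8* shares bases with *MT-ATP6*, and *MT-ND4L* with *MT-ND4*, on the same strand, where read pairs are not counted. *MT-ATP6* and *MT-ND4* had -0.15 and -0.10 in promyelocytes and 0.18 and 0.15 in granulocytes, and passed in neither. The part of this overlap in the values was not tested. The mitochondrial chromosome took 5.67% to 6.97% of the counts in granulocyte libraries.

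Of 18 assembly factors for complex I, 4 rose and 4 fell in granulocytes, and of 21 tested for complex IV, 3 rose and 6 fell. These are 44.4% and 42.9% of the lists in either direction, against 49.2% of all genes. Of 6 for complex III, 1 rose (*BCS1L*, 0.32) and none fell. That is 16.7%, against 24.4% of all genes that rose. Of 3 for complex V, 1 fell (*ATPAF2*, -0.55) and none rose, which is 33.3%, against 24.8% of all genes that fell. In promyelocytes none of these lists had a gene that passed. In granulocytes *NDUFAF6* rose by 0.51, *NDUFAF8* by 0.48 and the copper chaperone gene *COX17* by 0.41. There *COA5* fell by 0.63, *DMAC1* by 0.47 and *COX15*, an enzyme of heme A synthesis, by 0.48. With plain library totals 2 rose and 9 fell among the complex I factors and 2 rose and 10 fell among those of complex IV. The counts were 1 and 4 for complex III and 0 and 3 for complex V, against 2810 and 6236 of all 16944 genes.

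Of the 14 carriers tested, 2 rose and 6 fell in granulocytes, against 2 and 8 with plain library totals. The shares were 14.3% and 42.9%, against 24.4% and 24.8% of all genes. *CYCS*, for cytochrome c, rose from 149 to 195 CPM (means of 3 libraries, log2 fold change 0.39) in granulocytes and from 364 to 428 CPM (0.23) in promyelocytes. *ETFDH*, which passes electrons from fatty acid oxidation to ubiquinone, rose by 0.60 in granulocytes and 0.29 in promyelocytes. Of the 7 COQ genes on this list, which act in ubiquinone synthesis and were grouped here after their values had been seen, 5 fell in granulocytes: *COQ2* (-0.53), *COQ3* (-0.49), *COQ5* (-0.47), *COQ9* (-0.27) and *COQ7* (-0.22). *COQ6* (-0.25) and *COQ4* (0.05) did not pass. The remaining decrease was in *SLC25A3*, the mitochondrial phosphate carrier (-0.13). In promyelocytes none of the COQ genes nor *SLC25A3* passed.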

How the data were processed

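Strand-specific, paired-end total RNA sequencing of 12 cultures was used. Per the file headers and the study's methods, the authors aligned reads with STAR to hg38 and deposited raw counts of read pairs per gene from featureCounts on GENCODE v27, together with each gene's summed exon length. The submitters' processing notes name STAR 2.5.3a, featureCounts 1.5.2, FastQC 0.11.4 and DESeq2 1.16.1. Primary alignments with both ends mapped were counted by strand, and pairs on exons of several same-strand genes were dropped, so near-identical copies can split reads. Symbols came from GENCODE 44 for 57577 of 58288 genes, and 711 had none.

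Groups came from the sample labels. The members and lists were chosen with earlier results of these data known. Counts were tested in R 4.3.3 with edgeR 4.0.16 (limma 3.58.1) by quasi-likelihood, with TMM scaling, genes filtered at a minimum count of 10 (total 15), and Benjamini-Hochberg adjusted p under 0.05 over all genes tested. Each cell type was fitted alone, and the difference in a fit of all 12 libraries. Fold changes use a prior count of 0.125, and each standard error is the log2 fold change over the square root of F. Scripts were tested on simulated data. CPM and RPKM were computed from the counts. Promoter windows came from RefSeq (GRCh38.p14). Alternatives were the size factors of DESeq2, DESeq2 1.42.0, no filter, offsets for GC content and summed exon length, a replicate block and a threshold of 0.01. Others were 1 fit of 12 libraries, thinned counts, leaving out libraries and plain totals. The last, and leaving out both promyelocyte libraries numbered 1, were added after seeing the data.

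Named members were a fixed set of central subunits, the 6 largest increases and decreases past the threshold per cell type, the 6 smallest p of the difference, members passing in both cell types with opposite signs, tissue-restricted forms with their counterparts, *ATP5IF1* and the SDHAF factors. Others were named after their values were seen. One gene of the named set is not reported here.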

Additional observations from a re-analysis of the deposited data

Results flagged for a closer look

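For 20 genes the response to TNF-α differed between granulocytes and promyelocytes by the interaction test of edgeR (adjusted p under 0.05). The values are the response in granulocytes minus that in promyelocytes on the log2 scale. Among complex I genes the difference was 0.83 for *NDUFS6*, 0.74 for *NDUFA1*, 0.72 for *NDUFB1*, 0.66 for *NDUFA3*, 0.63 for *NDUFC1*, 0.48 for *NDUFB4*, 0.33 for *NDUFB7*, 0.33 for *NDUFS5*, 0.32 for *NDUFB11* and -0.23 for *NDUFS1*. Among complex IV genes it was 0.57 for *COX5A*, 0.44 for *COX6C* and 0.25 for *COX7B*. Among ATP synthase genes it was 1.02 for *ATP5ME*, 0.57 for *ATP5F1E*, 0.38 for *ATP5MK*, 0.28 for *ATP5MC2* and 0.26 for *ATP5PF*. For complex II and its assembly it was -0.35 for *SDHD* and -0.76 for *SDHAF3*. With plain library totals 10 of the 17 higher differences and all 3 lower ones passed. Without both promyelocyte libraries numbered 1, 8 of the 17 higher differences no longer passed: *NDUFC1* (0.31), *COX6C* (0.27), *NDUFB7* (0.14), *COX7B* (0.14), *ATP5MC2* (0.14), *ATP5PF* (0.12), *NDUFS5* (0.11) and *NDUFB11* (0.11). In that fit *ATP5ME* (0.60), *NDUFA1* (0.48), *NDUFB1* (0.47), *NDUFA3* (0.39), *ATP5F1E* (0.36) and *NDUFB4* (0.31) passed with values more than 1.5 times smaller. Groups of 3 libraries were too small for a test of single outlying libraries.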

How the results depend on the processing

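Of the 20 differences between cell types, 12 passed under 19 alternatives that do not include plain library totals or leaving out both promyelocyte libraries numbered 1, as did 22 of 35 calls in granulocytes and 0 of 2 in promyelocytes (15 alternatives each). With plain totals 13 of the 20 differences and 19 of the 35 calls passed, and without both libraries numbered 1, 12 of the 20 differences passed. The count of differences was 13 with a replicate block, 31 with GC and length offsets, 13 at a threshold of 0.01, 12 without both promyelocyte libraries numbered 1, and 14 to 29 with single libraries left out (14 without library 1 of either promyelocyte group or library 2 of either granulocyte group). In promyelocytes the count was 9 without a filter, 4 with GC and length offsets, 6 in a fit of all 12 libraries, 6 with plain library totals, and 2 to 5 with single libraries left out (5 without vehicle library 3, TNF-α library 2 or TNF-α library 3). In granulocytes it was 27 to 37 with single libraries left out. The median log2 fold change was -0.051 in granulocytes with plain totals and 0.074 in promyelocytes without both libraries numbered 1. With single libraries left out it ran from 0.05 to 0.11 in granulocytes and from -0.10 to 0.01 in promyelocytes. Summed levels were 6790 CPM (granulocytes, TNF-α) and 7122 CPM (granulocytes, vehicle) with plain totals, and 7578 CPM (granulocytes, vehicle) and 10357 CPM (promyelocytes, vehicle) with totals without mitochondrial genes. With plain totals the number of positive estimates in granulocytes went from 62 to 30 of 85. Among the named genes that passed in either fit, the sign turned for *COX5B* (-0.0013) and *NDUFV1* (-0.12) with plain totals and for *COX8A* (-0.12) with GC and length offsets. These offsets also turned *NDUFB7*, from 0.19 to -0.065, and plain totals turned *ATP5MC2*, from 0.11 to -0.018. Apart from scaling and left-out libraries, the cause was not tested. The deviations of same-numbered libraries had correlations from -0.15 to -0.013, after each group of 3 had been centred on its mean. Whether same-numbered libraries shared a batch was not tested. The replicate block gave 3 calls in promyelocytes and 32 in granulocytes.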

Other observations

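Of 14 tested regulators of mitochondrial genes, 4 rose and 2 fell in promyelocytes (2 and 3 with plain library totals), and 6 rose and 3 fell in granulocytes (5 and 4 with plain library totals). In either direction these are 42.9% and 64.3% of the list, against 14.8% and 49.2% of all genes. *PPRC1*, a coactivator related to PGC-1α, rose by 0.66 on the log2 scale in granulocytes (adjusted p = 4.07e-12) and had -0.10 in promyelocytes, where it did not pass. *MYC* fell by 1.21 in promyelocytes and had -0.07 in granulocytes, where it did not pass. *GABPB1*, a subunit of the ETS factor GABP, rose in both (0.50 and 0.51), while its DNA-binding partner *GABPA* fell in granulocytes (-0.36). *NRF1* itself rose by 0.21 in promyelocytes and 0.36 in granulocytes, and *HIF1A*, the oxygen-regulated factor, by 0.33 and 0.55.

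Of 17 citrate cycle and pyruvate dehydrogenase genes, 2 rose and 6 fell in granulocytes (1 and 9 with plain library totals), which is 47.1% in either direction against 49.2% of all genes. *CS*, for citrate synthase, rose by 0.25, and the pyruvate dehydrogenase genes *PDHB* and *DLAT* fell by 0.25 and 0.24. In promyelocytes 1 of the 17 passed, *DLD*, which rose by 0.21.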
